A study of Arabidopsis thaliana with 111 samples.

Results

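The nuclear genes of Arabidopsis thaliana for the protein subunits of photosystem I and photosystem II, and for the light-harvesting proteins bound to them, were followed through seed germination. The members were taken from a list of 42 loci named by family: 13 LHCB genes (antenna of photosystem II), 6 LHCA genes (antenna of photosystem I), 12 PSA genes (subunits of photosystem I) and 11 PSB genes (subunits of photosystem II). The array table held 21313 loci, and 35 of the 42 members were among them: 7 LHCB, 5 LHCA, 12 PSA and 11 PSB genes. LHCB1.1, LHCB1.3, LHCB1.4, LHCB1.5, LHCB2.1, LHCB2.2 and LHCA2 were not analysed here, so the major trimeric antenna of photosystem II was seen only through LHCB2.3 and LHCB3. The photosystem genes of the plastid genome were likewise not analysed here.

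In the thylakoid membrane, antenna proteins bind chlorophyll and pass the absorbed light energy to the reaction centres of the photosystems. Photosystem II oxidises water with the help of the oxygen-evolving complex on the lumenal side, to which the PSBO, PSBP and PSBQ proteins belong, and photosystem I reduces ferredoxin on the stromal side, where the PSAD and PSAE proteins sit. The reaction-centre cores are encoded in the plastid, whereas the antenna and many peripheral subunits are encoded in the nucleus, and their transcripts usually rise together when plastids turn into chloroplasts. In a seed, the embryo carries plastids that lost much of their chlorophyll during maturation, and the single living layer of endosperm that surrounds it is consumed or shed after germination.

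All seeds were of the accession Columbia-0, sown on water agarose in continuous light, with no mutant and no chemical treatment. Seeds were cut by hand into cotyledons (COT), radicle plus axis of the embryo (RAD), micropylar together with chalazal endosperm (MCE) and the remaining, peripheral endosperm (PE). MCE and RAD were collected at 1, 3, 7, 12, 16, 20, 25, 31 and 38 h after sowing, COT at 3, 16 and 31 h, and PE at 3 and 16 h, beside whole dry seeds. At 25 h seeds with a ruptured and an intact testa (seed coat) were kept apart, and at 38 h those with a ruptured and an intact endosperm. This gave 28 groups and 111 arrays, 4 per group except 3 for PE at 3 h. The labels do not say that replicates came from separate seed batches, so the p-values measure only spread between arrays. Standard errors and limma p-values use each gene's spread pooled over all 28 groups, not that of the groups compared.

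The values are log2 signals normalised together over all arrays. A value of one gene is set only against the same gene in other groups, because probes differ in brightness. A gene was called higher or lower where the Benjamini-Hochberg adjusted p of limma's moderated test, over all 21313 loci, was under 0.05 and the log2 difference was at least 1 (a change of 2-fold). Counts at an unadjusted p under 0.05 are also given. The share of all loci at that looser threshold was not computed, and percentages beside such counts are for called loci. The median of each array lay between 4.67 and 5.22. Names given to 3 arrays (MCE at 16 h, 20 h and 25 h with intact testa, replicate 2 of each) differed between the label fields, and 6 arrays were marked as redone, 1 of them MCE 31 h replicate 4. Since these are bulk samples, fewer cells of a type and less RNA per cell cannot be told apart.

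Marker genes were in the parts named on the labels. The mean log2 value of 14 cotyledon and stomata markers lay between 7.17 and 7.31 in the COT arrays at 31 h, between 4.32 and 4.50 in MCE and between 4.65 and 4.78 in RAD, with no overlap. In the MCE arrays at 31 h, 3 endosperm markers averaged 9.88 to 10.19, against 3.78 to 4.04 in COT and 3.67 to 3.89 in RAD. The 9 root markers measured averaged 6.85 to 6.99 in RAD, 5.05 to 5.24 in MCE and 4.33 to 4.59 in COT. Of the 3 endosperm markers, 1 had an MCE mean under 4.03, the level below which 25% of all loci stayed in every group. Averages of 5 seed coat markers were between 3.39 and 3.60 in all 3 parts.

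Over the groups sampled, most photosystem and antenna genes had their highest mean in MCE at 38 h, a time at which COT was not sampled. The highest group mean was in MCE at 38 h with ruptured endosperm for 25 of the 35 members and in MCE at 38 h with intact endosperm for 7. The remaining 3, LHCA6, PSBQ1 and PSBTn, were highest in COT at 31 h. The difference between a gene's highest and lowest group mean ran from 0.95 for LHCB2.3 to 7.59 for PSBR on the log2 scale. LHCB2.3, an isoform of the major antenna, had group means of 3.54 to 4.49 and was called in no comparison.

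**Figure D1:**
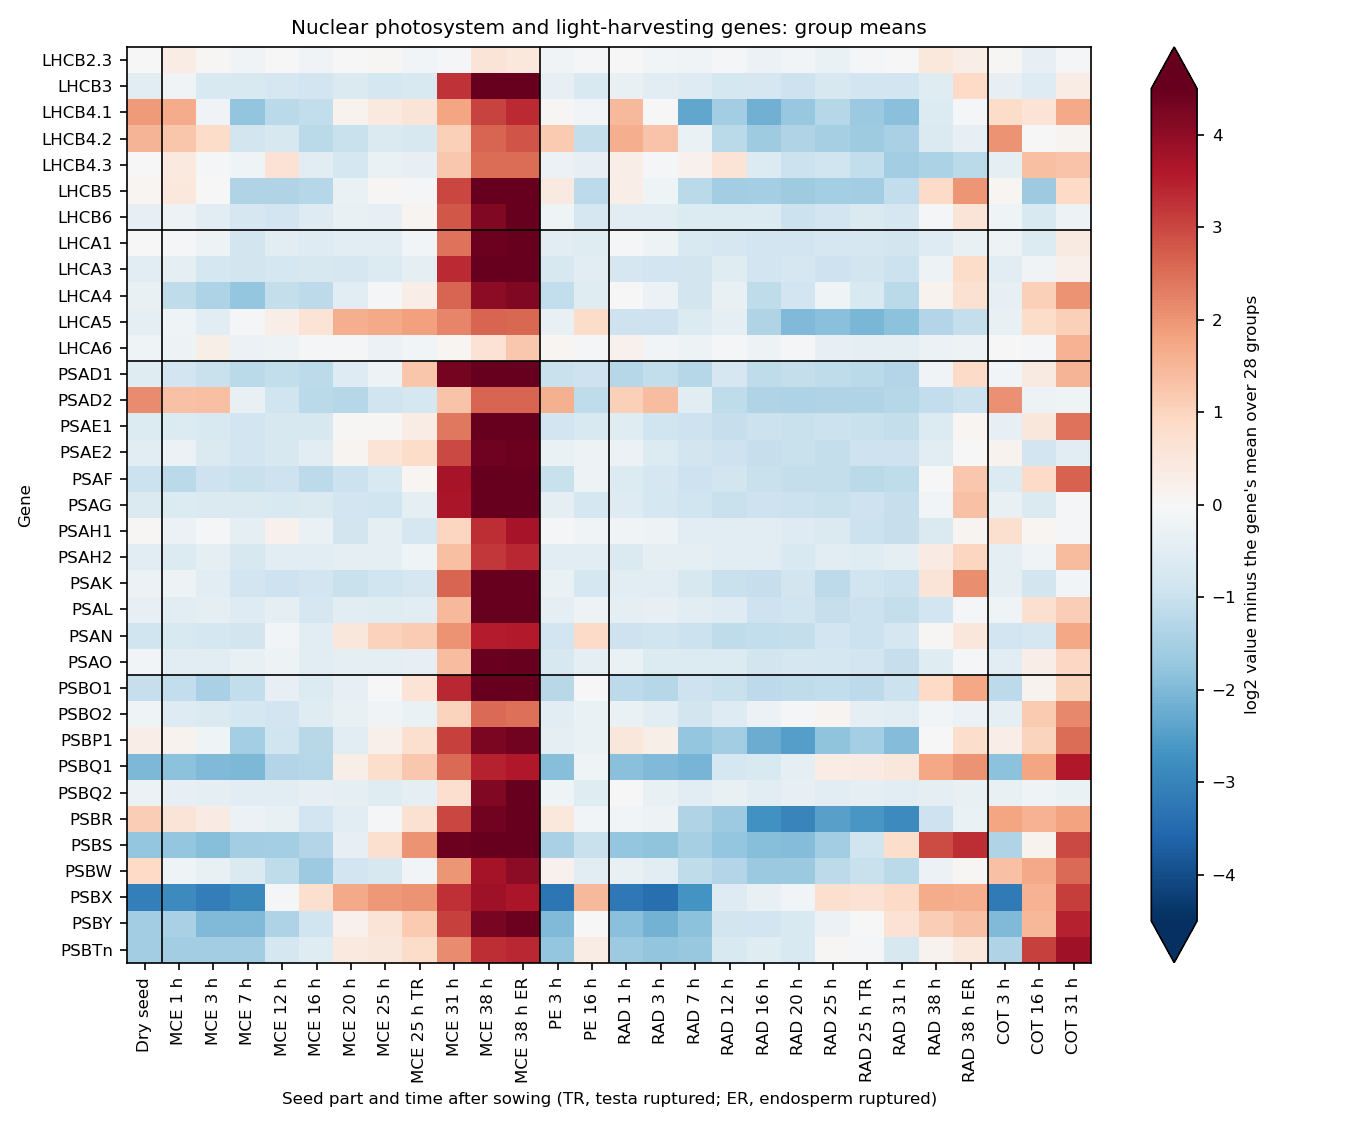
Group means of the 35 measured genes (rows, ordered by class) in the 28 groups (columns), coloured by the log2 value minus the gene's mean over all groups; colours are capped at the ends of the scale. The red block in MCE at 38 h, where COT was not sampled, holds the highest means of all but 3 genes, RAD is mostly blue until 31 h, and LHCA6, PSBQ1 and PSBTn are highest in COT at 31 h.

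As a description over the 28 group means, Pearson's correlation of a gene with the mean of the other members had a median of 0.906, and the lowest was 0.536 for PSAD2. The points share one normalisation and the same arrays.

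The mean of the 35 members, each centred on its own mean over the groups, was −0.33 ± 0.05 in dry seeds (SD, n = 4). In MCE it was −0.94 ± 0.03 at 7 h, −0.72 ± 0.09 at 16 h, 2.3003 ± 0.68 at 31 h, 3.87 ± 0.08 at 38 h before endosperm rupture and 4.07 ± 0.16 after it. In COT it was −0.24 ± 0.11 at 3 h, 0.36 ± 0.08 at 16 h and 1.34 ± 0.06 at 31 h. The RAD means stayed below the dry seed from 1 h to 31 h, where the value was −0.88 ± 0.06, and reached −0.03 ± 0.09 and 0.53 ± 0.11 at 38 h before and after rupture. The arrays of the 2 MCE groups at 38 h overlapped, so their order is not beyond the spread.

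The 4 MCE arrays at 31 h stood far apart from each other. Their means of the 35 members were 2.51, 3.08, 2.15 and 1.46 for replicates 1 to 4, all above the COT arrays (1.26 to 1.41). The SD of this mean was 0.68, against 0.164 pooled over all groups. The members' standard errors and limma p-values in comparisons with MCE at 31 h therefore understate its spread. Replicate 2 was the highest array for 32 members and replicate 4 the lowest for 33, both at once for 31. The same 4 arrays gave cotyledon marker means of 4.37, 4.32, 4.36 and 4.50, and endosperm marker means of 10.19, 10.09, 9.998 and 9.88. The part of the time of collection or of the redone array in this spread was not tested.

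**Figure D2:**
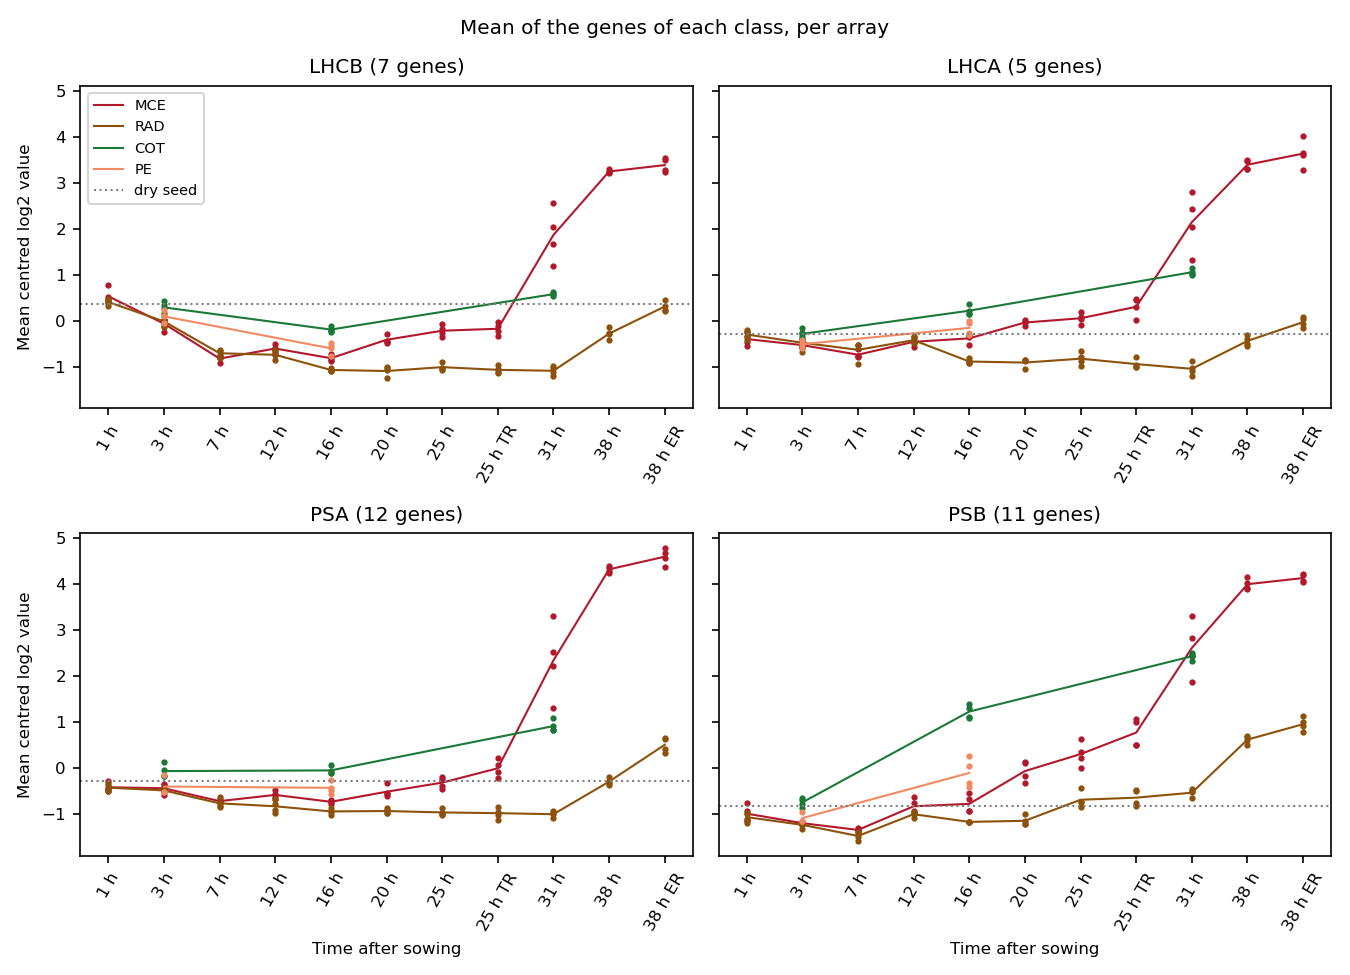
Mean centred log2 value of the members of each class (y axis) by stage after sowing (x axis, in order and not to scale; TR, testa ruptured; ER, endosperm ruptured) in MCE, RAD, COT and PE; points are arrays, lines join group means and the dotted line is the dry seed. The MCE line rises steeply after 25 h in all 4 panels, the 4 MCE arrays at 31 h spread widely, and COT at 16 h stands highest above its 3 h value in the PSB panel.

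LHCB4.1 (AT5G01530), a gene for the minor antenna CP29, was at 9.001, 9.119, 8.801 and 9.004 in the 4 dry seed arrays and at 5.57, 5.08, 5.08 and 5.45 in MCE at 7 h. In RAD at 7 h it was at 4.51, 5.03, 4.28 and 5.11. Every dry seed array lay above every array of both parts at 7 h. These are whole seeds against dissected parts, and the difference was not tested.

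Between 1 and 12 h, 5 members fell and 1 rose in MCE (11.9% of all loci fell and 15% rose), and 6 fell and 3 rose in RAD (12.1% and 16.8%). LHCB4.1, LHCB4.2 (also CP29), PSAD2, LHCB5 (the minor antenna CP26) and PSBP1 of the oxygen-evolving complex fell in both parts. LHCB4.1 fell by 2.88 ± 0.19 (SE) in MCE and by 3.01 ± 0.19 in RAD on the log2 scale, limma adjusted p = 2.7e-25 and 1.7e-26. PSBR, a small photosystem II subunit, fell in RAD by 1.51. PSBX, another small subunit, rose in both, by 2.77 ± 0.22 in MCE and 2.64 ± 0.22 in RAD. The shares of members that fell are near those of all loci, and the shares that rose are below them.

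From 3 to 16 h, 6 members fell and 4 rose in MCE (13.7% of all loci fell and 15.8% rose), while 7 fell and 4 rose in RAD (13.8% and 18.2%). The shares of members are not far from those of all loci. PSAD2 and LHCB4.2 fell most in MCE, by 2.55 and 2.04, and LHCB4.2 and PSAD2 most in RAD, by 2.86 and 2.74. PSBW, PSBR, PSBP1 and LHCB5 also fell in both. The risers in MCE were PSBX (3.82), LHCA5 (1.15), PSBY (1.09) and PSBTn (1.02), and in RAD PSBX (3.04), PSBQ1 (1.297), PSBY (1.27) and PSBTn (1.22). When the arrays were scaled again, only 2 members rose in MCE, and without MCE 16 h replicate 1 also 2.

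Between cotyledons at 3 h and the dry seed, LHCB4.1 alone was called, with a difference of −1.07 ± 0.19 (adjusted p = 4.6e-06, 1.68% of all loci lower), with COT 3 h arrays at 7.32, 8.53, 7.86 and 7.94. Without COT 3 h replicate 1, the lowest of these, it was not called. Whole seeds were set against a dissected part here, so time and seed part cannot be told apart. The share of members called lower is near that of all loci. No member was called higher (1.68% of all loci), and 6 were higher and 2 lower at an unadjusted p under 0.05 in limma.

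In the cotyledons, most of the early risers encoded photosystem II subunits. Between 3 and 16 h, 11 members rose and 4 fell, against 17.8% and 13.1% of all loci. PSB genes made up 7 of the 11, and no PSB gene fell. PSBX was at 3.48, 4.68, 4.24 and 3.92 at 3 h and at 9.12, 8.87, 8.58 and 8.71 at 16 h, a rise of 4.74 ± 0.22 (26.7-fold, adjusted p = 4.1e-36). PSBTn (AT3G21055), a nuclear gene for a small subunit, went from 3.29, 4.2001, 3.996 and 4.33 to 8.59, 8.42, 8.27 and 8.28, a rise of 4.44 ± 0.23, which may be understated since the mean at 3 h lay under 4.03. The 2 times did not overlap for either gene.

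PSBQ1 (3.62), PSBY (3.50), PSBO2 (1.60), PSBS (1.51) and PSBO1 (1.34) were the other PSB genes that rose. LHCB4.3 (1.80), PSAF (1.45), LHCA4 (1.44) and LHCA5 (1.15) completed the 11. PSAD2, LHCB4.2, LHCB5 and PSAE2 fell, by 2.31, 2.06, 1.74 and 1.03. PSBQ1 belongs to the oxygen-evolving complex, PSBS is needed for the harmless release of excess light energy, and PSAF helps plastocyanin dock to photosystem I.

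From 16 to 31 h in COT, 14 members rose and none was called lower (6.99% and 4.23% of all loci), and none was lower at an unadjusted p under 0.05 in limma. PSBS rose by 2.80 ± 0.22, LHCB5 by 2.55 ± 0.22, PSAN by 2.50 ± 0.18, PSBY by 1.97, PSAE1 by 1.95 and PSBQ1 by 1.83. LHCB5 was thus the one member that first fell and then rose again in COT, with group means of 5.92, 4.18 and 6.73 at 3, 16 and 31 h. LHCB3 (0.89), PSAK (0.71), PSAG (0.59) and LHCB6 (0.46) were higher at 31 h than at 16 h with adjusted p under 0.05 in limma but short of the minimum difference, and LHCB3 was called without COT 31 h replicate 1 (1.096). LHCA3 and PSBQ2 were among the members called in neither step, as were LHCB3, PSAK, PSAG, LHCB6 and LHCB2.3.

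In MCE nearly every member rose late. From 16 to 31 h, 33 of 35 rose and none was called lower, with a median of 3.104 on the log2 scale, against 10.6% and 11.7% of all loci and a median of −0.05 over all loci. The exceptions were LHCB2.3 (0.08 ± 0.13) and LHCA6 (0.16 ± 0.17). The risers were 6 LHCB, 4 LHCA, 12 PSA and 11 PSB genes. PSBS rose by 5.74 ± 0.22 (53.6-fold, adjusted p = 3.2e-41) and PSAD1 by 5.50 ± 0.19 (adjusted p = 1.4e-44). The PSAD1 mean at 16 h, 3.60, lay under 4.03, so that this difference may be understated. No member was lower at an unadjusted p under 0.05 in limma.

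The change from 16 to 31 h itself differed between the parts. It was larger in MCE than in COT for 30 members and smaller for 1, LHCA6 (10.1% and 12.1% of all loci), with a median difference of 2.00. PSAH2 (0.30), PSAN (0.02), PSBO2 (0.58) and LHCB2.3 (−0.23) did not pass. It was larger in MCE than in RAD for 33 and smaller for none (8.88% and 10.2% of all loci, none smaller at an unadjusted p under 0.05 in limma), with a median of 2.83. In RAD it was smaller than in COT for 10 members and larger for none (4.53% and 4.33% of all loci, none larger at an unadjusted p under 0.05 in limma), with a median of −0.71, among them PSAN (−2.17), LHCB5 (−2.14) and PSAE1 (−2.07). These tests share arrays with each other.

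From 31 h to 38 h with intact endosperm, a comparison added after the levels had been seen, 28 members rose further in MCE and none was called lower (3.67% and 2.14% of all loci), with a median of 1.41. All 35 were higher at an unadjusted p under 0.05 in limma. PSBQ2 (AT4G05180), the other PSBQ gene, was at 3.77, 5.82, 4.16 and 3.06 at 31 h and at 7.71, 7.45, 7.67 and 7.60 at 38 h. That is a rise of 3.41 ± 0.20 (10.6-fold, adjusted p = 2.2e-27), with no overlap. PSAL (3.22) and PSAO (3.07), both at the docking side for the mobile antenna of photosystem II, and PSAK (2.69) rose next. PSBS (0.46) and LHCA5 (0.41) were among the 7 members not called.

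At 31 h, MCE and COT differed in both directions, but only the share of higher members was above that of all loci. Of the 35 members, 17 were higher in MCE and 4 lower, against 15.1% and 18% of all loci. The median difference was 0.94, against −0.011 over all loci, and it was 0.52 without MCE replicate 2. In 14 members all MCE arrays lay above all COT arrays and in 4 all lay below (26% and 28.7% of all loci).

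Among antenna genes, 3 LHCB and 3 LHCA genes were higher in MCE. LHCB6 (AT1G15820), for the minor antenna CP24, was at 6.70, 7.73, 6.90 and 6.24 in MCE and at 4.07, 3.93, 3.79 and 3.70 in COT. The difference was 3.02 ± 0.19 (adjusted p = 1.9e-27), with no overlap, and may be understated since the COT mean lay under 4.03. LHCB3, a component of antenna trimers, was higher by 2.94 ± 0.21 and LHCB5 by 2.104 ± 0.22. In contrast LHCB4.1 (0.06 ± 0.19) and LHCB4.3 (−0.05 ± 0.15) did not pass the test, and LHCB4.2 (0.94 ± 0.16) fell short of the minimum difference. Without MCE replicate 4 or COT replicate 1, LHCB4.2 was called (1.22 and 1.02).

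LHCA3 (AT1G61520) was at 8.03, 8.87, 7.56 and 6.06 in MCE and at 4.86, 4.73, 4.33 and 4.06 in COT, a difference of 3.13 ± 0.22 (8.78-fold, adjusted p = 1.2e-23). The lowest MCE array was still above every COT array. LHCA1 was higher by 2.06 and LHCA5 by 1.14. LHCA6 (AT1G19150), which with LHCA5 links photosystem I to the NDH complex of cyclic electron flow, differed by −1.47 ± 0.17, with MCE arrays at 4.52, 4.44, 4.36 and 3.88 and COT arrays at 5.77, 5.50, 6.03 and 5.79. The arrays of the 2 parts did not overlap.

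Of the photosystem I subunits, 7 were higher in MCE and none was called lower. PSAG (AT1G55670), which helps hold the antenna of photosystem I, was at 8.004, 8.87, 7.54 and 6.92 in MCE and at 4.17, 4.43, 3.88 and 3.97 in COT. This was the largest difference among the members, 3.72 ± 0.19 (13.2-fold, adjusted p = 7.3e-33). PSAE2 (3.44), PSAD1 (2.78), PSAK (2.74), PSAD2 (1.47), PSAF (1.04) and PSAH1 (1.03) were the others. PSAF and PSAH1 were near the minimum: without MCE replicate 2 their differences were 0.80 and 0.69, and without MCE replicate 1 they were 0.97 and 0.93. PSAH1 also lost its call without COT replicate 1 (0.99) or 4 (0.95). PSAH2, PSAE1, PSAL, PSAN and PSAO did not pass, with values between −0.08 and 0.47.

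Photosystem II subunits were split. PSBO1 (AT5G66570), for the manganese-stabilising protein of the oxygen-evolving complex, was at 8.23, 8.57, 7.52 and 6.77 in MCE and at 5.32, 5.70, 5.42 and 5.09 in COT, higher by 2.39 ± 0.20 (5.25-fold, adjusted p = 3.8e-20). The groups did not overlap. PSBS (1.45), PSBR (1.21) and PSBQ2 (1.06) were also higher. The PSBQ2 arrays in MCE ranged from 3.06 to 5.82 and overlapped those of COT (3.01 to 3.29), and without MCE replicate 2 the difference was 0.52. Without the same array PSBR came to 0.95 and was not called.

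PSBTn, PSBO2 and PSBQ1 were lower in MCE (−1.67, −1.15 and −1.06). PSBTn was at 7.77, 7.94, 7.42 and 6.62 in MCE and at 9.31, 8.89, 9.12 and 9.11 in COT, below it in every array. Without MCE replicate 4 the lower members numbered 2, since PSBO2 and PSBQ1 came to −0.97 and −0.88. PSBO2 also lost its call without MCE replicate 3 (−0.996) and PSBQ1 without COT replicate 2 (−0.997). PSBX (0.20), PSBY (−0.40), PSBP1 (0.56) and PSBW (−0.59) were not called.

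Because the MCE arrays at 31 h varied more than most groups, the fit was also made with only the groups compared, an alternative chosen after seeing the data. Then 16 members were higher, PSBQ2 no longer among them, and 4 lower. The shares of all loci called under this fit were not computed.

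**Figure D3:**
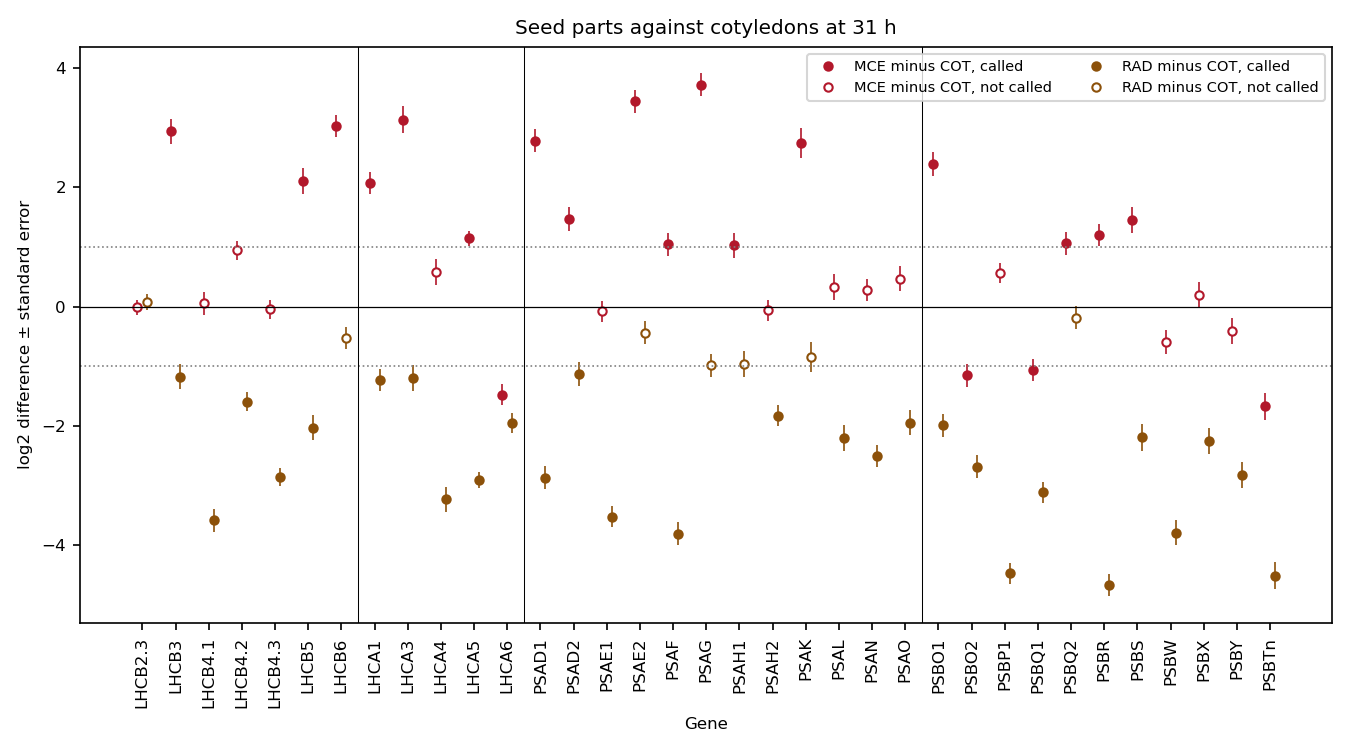
Log2 difference of each member (x axis, grouped by class) between MCE and COT (red) and between RAD and COT (brown) at 31 h, with the standard error; filled points were called, dotted lines mark the minimum of 1. The red points run from −1.67 (PSBTn) to 3.72 (PSAG), while all brown points but LHCB2.3 lie below 0.

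In the radicle and axis at 31 h the members were low throughout. None was called higher than in COT and 28 were lower (7.14% and 8.3% of all loci), with a median of −2.19 against 0.0042 over all loci. No member was higher even at an unadjusted p under 0.05 in limma, and 33 were lower. In 33 members every RAD array lay below every COT array (19.5% of all loci). PSBR (AT1G79040) was at 4.45, 4.67, 4.84 and 4.57 in RAD and at 9.39, 9.19, 9.60 and 9.01 in COT, a difference of −4.67 ± 0.19 (25.4-fold, adjusted p = 6.1e-40).

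The log2 differences of PSBTn and PSBP1 were −4.51 (22.7-fold) and −4.46 (22.0-fold). PSAF (AT1G31330) was at 3.92, 3.67, 4.05 and 3.73 in RAD and at 7.59, 7.53, 7.69 and 7.78 in COT, a difference of −3.80 ± 0.19. The PSAF mean in RAD lay under 4.03, so its difference may be understated. LHCB4.1 was at 5.13, 5.42, 5.27 and 5.01 in RAD and at 8.61, 8.84, 9.04 and 8.65 in COT, a difference of −3.58 ± 0.19. None of these groups overlapped.

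LHCA4 (AT3G47470), an antenna protein of photosystem I, was at 4.42, 4.68, 4.33 and 4.88 in RAD and at 7.14, 7.93, 8.12 and 8.01 in COT, a difference of −3.23 ± 0.21. The smallest called differences of the other classes were −1.12 for PSAD2, −1.17 for LHCB3, −1.198 for LHCA3 and −1.99 for PSBO1. LHCB6, PSAE2, PSAG, PSAH1, PSAK and PSBQ2 were among the 7 not called, with differences between −0.98 and −0.18, beside LHCB2.3 (0.08). The RAD means of LHCB3, LHCA3, PSBO1, PSAG and PSAH1 lay under 4.03, so their differences may be understated. LHCB6 and PSBQ2 had means under 4.03 in both parts, so a difference may have been missed.

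Few members were called between COT and RAD at 3 h and many at 16 h. At 3 h, 2 were higher in COT, PSBR by 2.00 ± 0.19 and PSBW by 1.82 ± 0.20, and none was called lower (1.85% and 2.86% of all loci). By 16 h 21 were higher and none was called lower (6.12% and 5.11% of all loci), with a median of 1.45. Leaving out COT 3 h replicate 1 or RAD 3 h replicate 4 raised the count at 3 h to 4. At an unadjusted p under 0.05 in limma, 12 were higher and 1 lower at 3 h, and 24 higher and none lower at 16 h.

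Within RAD, only 4 members rose from 16 to 31 h (7.16% of all loci): PSBS by 2.70 ± 0.22, PSBY by 1.51, PSBQ1 by 1.19 and PSBX by 1.19. None was called lower (4.34% of all loci), and 3 were lower at an unadjusted p under 0.05 in limma. Leaving out RAD 16 h replicate 1, 2 or 4, or RAD 31 h replicate 2 or 3, brought 1 member below −1. From 31 h to 38 h with intact endosperm, also a comparison added after the levels had been seen, 11 rose and none was called lower (3.87% and 3.16% of all loci, 27 higher and none lower at an unadjusted p under 0.05 in limma), led by PSBS (2.14), LHCB5 (1.98), PSBP1 (1.95), PSBR (1.94) and PSBO1 (1.89).

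MCE stood above RAD at all late stages. At 31 h, 33 members were higher in MCE and none was called lower (14.2% and 16.2% of all loci), with a median of 3.29. PSBR differed most, by 5.87 ± 0.19 (58.6-fold, adjusted p = 3.0e-48). At 38 h with intact endosperm 33 were higher and none was called lower (14.1% and 17.1% of all loci), with a median of 3.98. At 38 h with ruptured endosperm 34 were higher and none was called lower (14.1% and 17.6% of all loci), with a median of 3.65. LHCB2.3 was called at none of these stages. No member was lower at an unadjusted p under 0.05 in limma in any of the 3.

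Genes for the same subunit did not always move together. For 7 pairs, the difference between the 2 genes was taken in each array and compared between groups by a two-sided exact permutation test over arrays, adjusted over the 7 pairs. The smallest p that 4 arrays against 4 allow is 0.0286. After adjustment, whether a pair at this p passes depends on how many other pairs also reach it. Passing or failing therefore does not rank the pairs by the size of their divergence. Probes of such near copies may bind both transcripts, which would make their differences smaller, and the extent of this was not tested.

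From 3 to 31 h in COT, 5 pairs diverged (exact permutation, adjusted p = 0.04 for each). PSBQ1 changed by 5.45 and PSBQ2 by 0.03. Both PSBQ2 means lay under 4.03, so a change in PSBQ2 may be understated or missed. PSAD1 changed by 1.65 and PSAD2 by −2.25, a divergence of 3.90. PSAE1 changed by 2.82 and PSAE2 by −0.64, while PSAH1 changed by −0.80 and PSAH2 by 1.86.

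LHCB4.1 changed by 0.87 and LHCB4.2 by −1.90 over the same time. PSBO1 and PSBO2 changed by 2.205 and 2.58 (divergence −0.37, exact permutation, adjusted p = 0.2). LHCB4.1 and LHCB4.3 diverged by −0.85 (exact permutation, adjusted p = 0.133). Neither of the last 2 passed.

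Between MCE and COT at 31 h, 6 pairs differed (exact permutation, adjusted p = 0.0334 for each). PSBO1 was higher in MCE and PSBO2 lower, a divergence of 3.54. PSAE2 was higher by 3.44 while PSAE1 was at −0.08, a divergence of −3.52. PSBQ2 and PSBQ1 pointed in opposite directions with a divergence of −2.12. The COT mean of PSBQ2 lay under 4.03, so its difference may be understated.

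PSAD1 exceeded PSAD2 by 1.302 in its difference, PSAH1 exceeded PSAH2 by 1.08, and LHCB4.1 against LHCB4.2 diverged by −0.88. LHCB4.1 and LHCB4.3 diverged by 0.11 (exact permutation, adjusted p = 0.8). Without any one of the 4 MCE arrays none of the 7 pairs passed, with 3 arrays against 4.

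Between RAD and COT at 31 h the divergences were −3.08 for PSAE, −2.93 for PSBQ, −1.98 for LHCB4.1 against LHCB4.2 and −1.74 for PSAD (exact permutation, adjusted p = 0.05 for each, not under the threshold). PSAH (0.86), PSBO (0.69) and LHCB4.1 against LHCB4.3 (−0.73) had larger adjusted p. PSAD1, PSAE1, PSAH1, LHCB4.3 and PSBQ2, among others, had RAD means under 4.03, so their differences may be understated. The PSBQ2 mean lay under it in COT too. No pair passed here, and 5 did without COT replicate 1, 2 or 3. At an unadjusted exact permutation p under 0.05, 4 pairs differed, each at 0.0286.

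**Figure D4:**
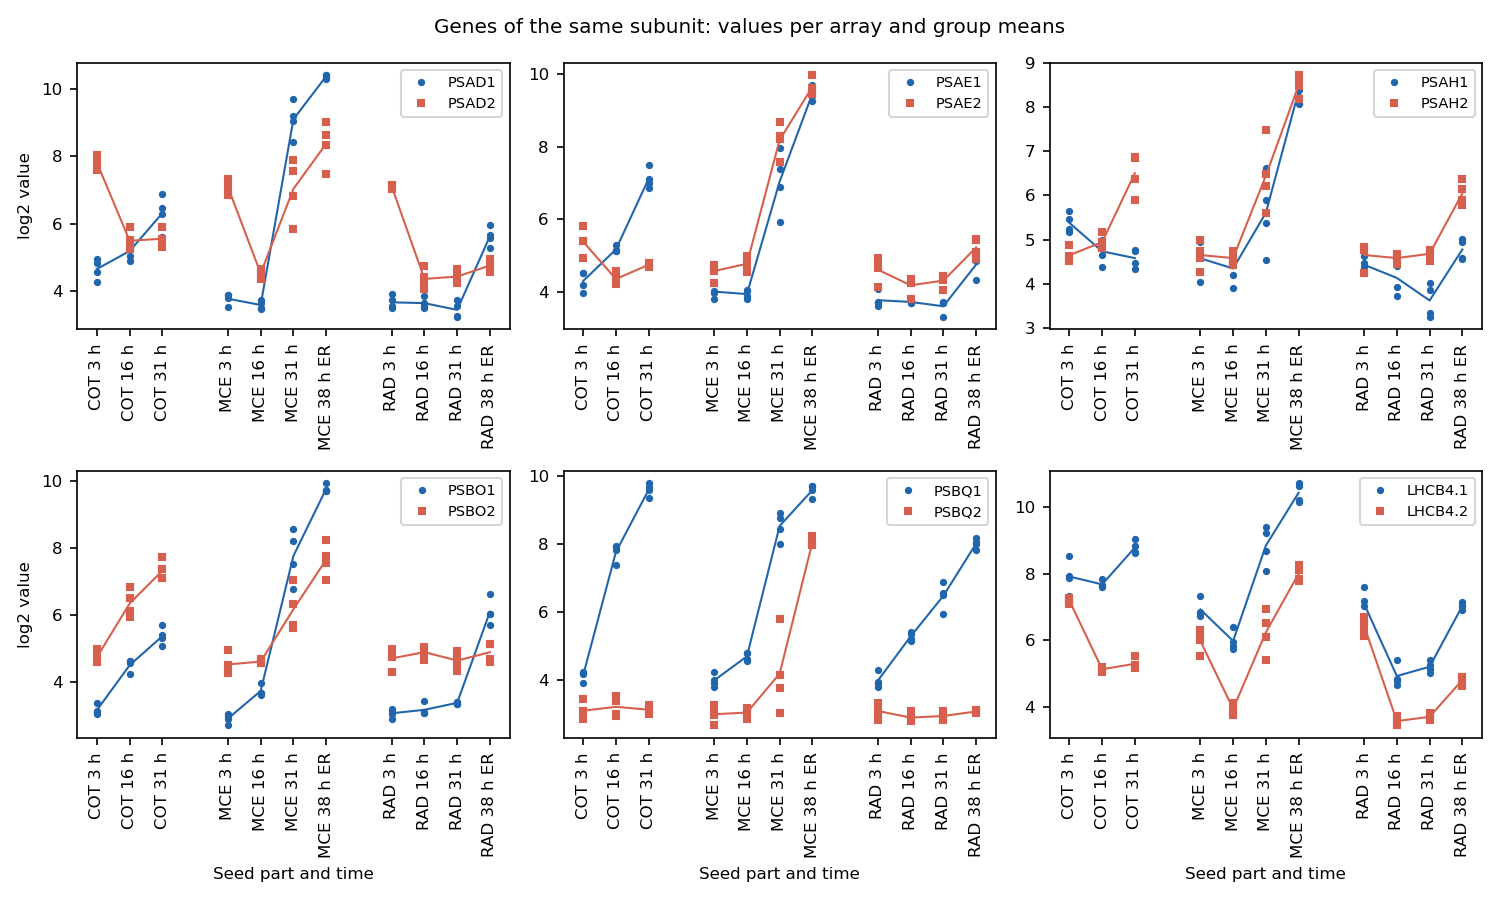
Log2 values (y axis) of 6 pairs of genes for the same subunit in COT, MCE and RAD by time (x axis); points are arrays and lines join group means. PSBQ1 climbs in all 3 parts while PSBQ2 climbs in late MCE, and PSAD2 falls from 3 h to 16 h in all 3 parts before returning in late MCE; levels of 2 genes in a panel are not comparable, only their courses.

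Rupture of the seed coverings went with few or no called members, except for endosperm rupture in RAD. At testa rupture (25 h) 2 members were higher in MCE of ruptured seeds, PSAD1 by 1.49 ± 0.19 and PSBS by 1.32 ± 0.22 (2.83% of all loci higher and 0.54% lower, limma adjusted p = 7.7e-10 and 1.6e-06). None was called lower, and 11 were higher and none lower at an unadjusted p under 0.05 in limma. None was called in RAD (1.44% of all loci higher, 0.577% lower), where 1 was higher and 2 lower at an unadjusted p under 0.05 in limma. None was called at endosperm rupture (38 h) in MCE (0.99% higher, 0.328% lower), where 5 were higher and none lower at an unadjusted p under 0.05 in limma.

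At endosperm rupture in RAD, 7 members were higher in ruptured seeds and none was called lower (1.78% and 0.136% of all loci, 20 higher and none lower at an unadjusted p under 0.05 in limma): PSAK (1.52), PSAG (1.47), LHCB3 (1.45), PSAF (1.204), LHCB5 (1.11), LHCA3 (1.05) and PSAD1 (1.03). The median of the 35 was 0.49, against −0.04 over all loci. The difference at rupture was smaller in MCE than in RAD for LHCB3 (−1.497 ± 0.29) and PSAG (−1.29 ± 0.27), and larger for none (1.43% and 0.554% of all loci). At an unadjusted p under 0.05 in limma it was smaller for 9 and larger for 1. The 2 called members became 4 when RAD 38 h ruptured replicate 1 or 3, RAD 38 h intact replicate 2, MCE 38 h ruptured replicate 2 or MCE 38 h intact replicate 4 was left out.

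The peripheral endosperm at 16 h lay between the cotyledons and MCE. The mean centred values of the 35 members were −0.52 to −0.11 in the PE arrays, −0.81 to −0.62 in MCE and 0.28 to 0.45 in COT, with no overlap. Against COT 14 members were lower and 1 higher (7.65% and 7.39% of all loci), with a median of −0.73. PSBTn was lowest at −2.76 ± 0.23, followed by PSBW (−2.198) and PSBQ1 (−1.99), and PSAN, a lumenal subunit of photosystem I, was the one higher, by 1.63 ± 0.18. Against MCE 3 were higher and none was called lower (0.272% and 0.84% of all loci): PSAN (1.37), PSBW (1.14) and PSBQ1 (1.07).

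Leaving out PE replicate 3 gave 8 higher members against MCE, PE replicate 4 or MCE replicate 1 gave 5, and PE replicate 1 gave 1. No member was lower than in MCE at an unadjusted p under 0.05 in limma.

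Other genes of photosynthesis were mostly lower in RAD than in COT at 31 h. Beside the counts that follow, 15.1% of all loci were higher and 18% lower in MCE than in COT, and 7.14% were higher and 8.3% lower in RAD. Whether they differ from the members was not tested, and these lists were chosen with earlier results of these data known. Of 14 genes of electron transport and the ATP synthase, 1 was higher in MCE than in COT and 3 were lower, shares near those of all loci, with a median of −0.37. LFNR1, a ferredoxin-NADP reductase, was higher by 2.41, and LFNR2, its other leaf form, lower (−2.61), beside ATPC2 (−2.42) of the ATP synthase. In RAD 13 of the 14 were lower than in COT, with log2 differences of −4.83 for PETE2 (plastocyanin) and −3.94 for PETC (Rieske protein).

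Of 13 genes of chlorophyll synthesis, 2 were higher and 8 lower in MCE than in COT. PORB, a protochlorophyllide reductase, was higher by 1.79 and CHLH, a subunit of magnesium chelatase, by 1.58. PORC, another reductase, differed by −4.14 and DVR, divinyl reductase, by −3.54. In RAD 12 were lower and none was called higher. Of 8 genes for insertion and assembly of antenna proteins, 5 were lower in MCE, led by CPSRP54 (−2.54) and CPFTSY (−2.42) of the chloroplast signal recognition pathway, and all 8 in RAD.

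Among 9 light-harvesting-like genes, 1 was higher in MCE, SEP2 (3.01), and 4 lower, led by LIL3.1 (−2.44) and SEP1 (−1.79). In RAD 1 was higher, SEP2 again (1.04), and 5 were lower. RCA, the activase of Rubisco, was the only gene of its list measured: the difference was 0.58 in MCE, not called, and −2.97 in RAD.

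Of 14 regulators, 3 were higher and 7 lower in MCE than in COT. PHYA, the phytochrome active in seeds and seedlings in dim and far-red light, was higher by 1.74, SIG5, a sigma factor of plastid transcription, by 1.55, and HY5, a light-response transcription factor, by 1.54. The GATA factors CGA1 and GNC were at −4.04 and −3.60 and GLK1 at −2.46, all known to promote chloroplast development. In RAD none was called higher and 8 were lower, led by CGA1 (−4.45) and GNC (−3.46).

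**Figure D5:**
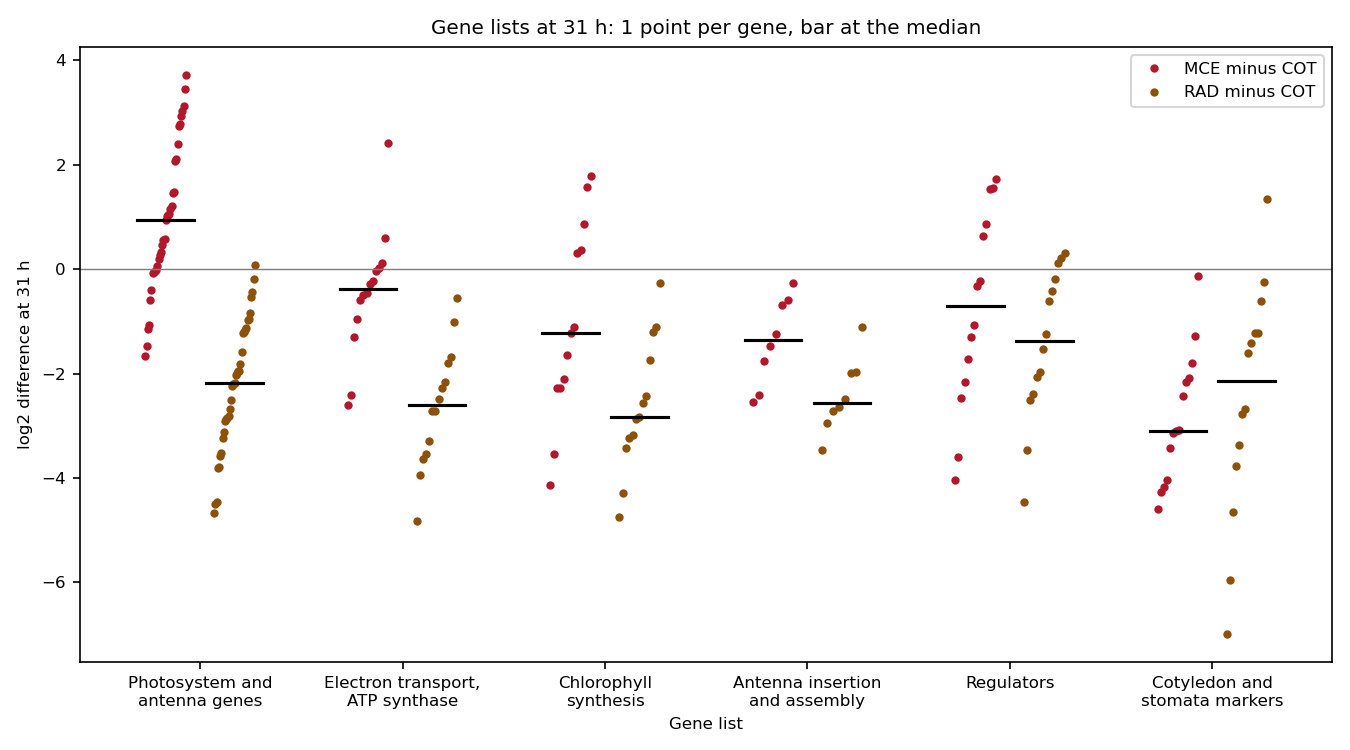
Log2 differences at 31 h (y axis) for the 35 members and 5 gene lists (x axis), MCE minus COT in red and RAD minus COT in brown; each point is 1 gene and the black bar is the median. In red, the members have a median of 0.94 while the other lists lie below 0, and in brown all medians lie below −1.

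Markers of the other seed parts in MCE were followed beside these results. Between 16 and 31 h in MCE, when 33 members rose, 1 of the 14 cotyledon and stomata markers rose and 1 fell. Among all loci 10.6% rose and 11.7% fell, so these marker counts are not far from the shares of all loci. The mean level of the 14 markers per array was 4.105 to 4.23 at 16 h and 4.32 to 4.50 at 31 h. At 38 h it was 4.48 to 4.74 with intact and 4.57 to 4.67 with ruptured endosperm, the latter above all arrays at 31 h. The 3 endosperm markers averaged 9.88 to 10.19 at 31 h, 9.72 to 10.01 at 38 h with intact and 9.597 to 9.87 with ruptured endosperm. The part of these shifts in the members' values was not tested. At 31 h 13 of the 14 cotyledon and stomata markers were lower in MCE than in COT (18% of all loci), with differences of −4.60 for FIL and −4.27 for YAB3. Of the 14, 7 had MCE means under 4.03, against 1 in COT. Of the 9 root markers, 2 were higher and 2 lower in MCE than in COT (15.1% and 18% of all loci).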

How the data were processed

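RNA from dissected seed parts was hybridised to 111 Affymetrix arrays in 28 groups. Per the submitters' processing notes, the deposited values are log2 signals made with RMA in the package affy, 1 row per locus. Versions, probe definition and genome build are not given in the sources used here. Array medians still differed in the deposited values, and a change shared by most loci may be reduced by such normalisation. Values near background (about 4.03 and below) understate differences.

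All members matched the RefSeq locus table by locus. One mean per group was fitted over all arrays with limma 3.58.1 in R 4.3.3, with 83 residual and 8.02 prior degrees of freedom. Of the 28 comparisons, 2 were added after the levels had been seen. The fit was tested on simulated data with known changes. The simulated noise was independent between genes and had the same SD in every group. It lacked the wide, shared spread of MCE at 31 h, so the simulation cannot show how the fit performs for that group. The number of arrays limits the precision.

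Members, lists and tests were chosen with earlier results of these data known. Values per array are given, in each class, for the called members with the largest and smallest differences at 31 h and for genes of the same subunit. For each list, up to 2 called genes in each direction are named. Other genes were named after their values were seen. Replicate numbers are shared between groups. Deviations of same-numbered arrays were compared in 24 comparisons, and every correlation was over 0.1 only in PE minus MCE at 16 h (0.265 to 0.425). Alternatives were leaving out dim loci, repeated quantile normalisation, an added scaling on a mean trimmed by 30%, array weights, the replicate block, no redone arrays, no arrays with differing labels, no fold minimum and leaving out each of 92 arrays. Promoter motifs were not run.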

Additional observations from a re-analysis of the deposited data

Results flagged for a closer look

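In 3 of 93 groups of 4 arrays examined, 1 array stood apart from the other 3 by Dixon's criterion, and chance alone gives about 1 in 20. They were LHCB3 in COT at 31 h (replicate 1 at 4.02, the others at 4.78 to 4.92), PSAE1 in RAD at 31 h (replicate 4 at 3.31, the others at 3.69 to 3.72) and PSAG in RAD at 31 h (replicate 2 at 3.37, the others at 3.02 to 3.07).

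Differences of change between seed parts passed limma's interaction tests as follows. The change from 16 to 31 h differed between MCE and COT for 31 members (10.1% of all loci larger and 12.1% smaller in MCE). Between RAD and COT it differed for 10 (4.33% larger and 4.53% smaller in RAD). Between MCE and RAD it differed for 33 (8.88% larger and 10.2% smaller in MCE). The difference at endosperm rupture differed between MCE and RAD for 2, LHCB3 and PSAG (0.554% of all loci larger and 1.43% smaller in MCE).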

How the results depend on the processing

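The counts of members and pairs called were recomputed under each alternative, and 33 of the values under settings other than leaving out an array moved by over 1.5 times. No member that was called turned its direction. The replicate block, which fits replicate terms shared by all 28 groups, changed no call. For PE minus MCE at 16 h, where same-numbered arrays were correlated, it gave 3 higher members as before. It does not pair the PE arrays with the MCE arrays, so it cannot show the effect of such a pairing, which was not tested. Without a fold minimum the counts higher were 24 for COT 16 to 31 h, 7 for MCE 3 to 16 h, 8 and 1 at testa rupture in MCE and RAD, 1 and 16 at endosperm rupture in MCE and RAD, 6 and 6 for 1 to 12 h in MCE and RAD, 4 for COT at 3 h minus dry seed, 10 for COT minus RAD at 3 h, 2 and 12 for PE minus COT and PE minus MCE at 16 h, and 23 for RAD 31 to 38 h. The counts lower were 7 for COT 3 to 16 h, 13 for RAD 3 to 16 h, 3 for RAD 16 to 31 h, 18 for the change in RAD minus that in COT, 4 for the rupture difference in MCE minus RAD, 13 and 11 for 1 to 12 h in MCE and RAD, 2 for COT minus dry seed and 1 for COT minus RAD at 3 h. These follow from the looser rule. The shares of all loci under that rule were not computed, so these counts show only the effect of the rule. Both repeated quantile normalisation and added scaling gave 2 higher for MCE 3 to 16 h, 1 for RAD 1 to 12 h and 4 for COT minus RAD at 3 h. Quantile normalisation also gave 4 lower for the rupture difference and 5 pairs for RAD minus COT, array weights gave 2 higher for MCE 3 to 16 h, and leaving out the redone arrays gave 2 lower and 0 pairs for MCE minus COT. For these the cause was not tested.

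Leaving out 1 array in turn gave, for MCE minus COT at 31 h, 13 to 18 higher, 2 to 4 lower and 0 to 6 pairs. It gave 0 to 5 pairs for RAD minus COT, 2 to 4 higher for MCE 3 to 16 h, 0 to 1 lower for RAD 16 to 31 h, 2 to 4 lower for the rupture difference, 0 to 1 lower for COT minus dry seed, 2 to 4 higher for COT minus RAD at 3 h and 1 to 8 higher for PE minus MCE. The median of MCE minus COT ranged from 0.52 without MCE replicate 2 to 1.22 without MCE replicate 4. The added scaling moved the median of all loci to −0.323 for COT 3 to 16 h and to −0.285 for MCE 1 to 12 h, and the members' medians went from 0.34 to 0.13 and from −0.099 to −0.32. Genes near background understate changes.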
